A study of Mus musculus with 2 samples.

Results

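Dazl, Sycp1, Sycp3, Mael, Stk31, Asz1 and Ddx4 are genes of the germ line whose promoters are methylated in other cells, and the peaks of 5-hydroxymethylcytosine (5hmC) at these 7 loci in mouse embryonic stem (ES) cells are described here. A peak was counted at a locus when its midpoint lay within 100 kb of the gene's span on mouse build mm9. This gave 52 of 57827 peaks in the AA-labelled list and 57 of 63834 in the no-AA-labelled list. Each list came from 1 library of 129SvEv ES cells, in which 5hmC was tagged with biotin and the tagged fragments were pulled down and sequenced. The AA-labelled library was from cells that had received vitamin C (ascorbic acid, AA) at 100 µM over 24 h, and for the no-AA-labelled library the labels name no incubation. The sources used here do not name the ES line, its clone or its medium, and the files hold no measure of gene expression by which the cell type could be checked.

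The header inside each list names the other sample. The lists are therefore called by the sample they were recorded for, and if the headers are right, each direction given here is the opposite one. Each group was 1 library, so replicate error is unknown and nothing was tested between them. Intervals are 95% exact intervals and cover counting error only. The AA-labelled library held 11907082 tags (aligned reads kept once per position) and the other 18398162, or 1.55 times as many.

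5hmC is made from 5-methylcytosine by the Tet dioxygenases, enzymes whose activity is known to be aided by reducing agents such as ascorbic acid. The promoters of many genes used only in germ cells are rich in CpG and carry methylation outside the germ line, which keeps the genes silent. Loss of that methylation is known to go with their activation in primordial germ cells, where Tet1 takes part. In ES cells the same promoters are known as sites at which methylation and its oxidation are both found.

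The sequence ahead of the genes' starts is shown for its CpG, the place where most methylation is made. All 7 genes matched the RefSeq promoter table (build GRCm38.p6), Stk31 with 2 starts. The 250 bases before the start are shown for the genes whose peaks mark the ends of the range described next: Dazl had the most AA-labelled tags, Sycp1 the most no-AA-labelled tags, Mael the highest ratio and Ddx4 the lowest. They run 5′ to 3′ on the gene's strand with each CpG in capitals, and are on the minus strand of GRCm38.p6 at chr17:50293621-50293870 (Dazl), chr3:102936101-102936350 (Sycp1), chr1:166238745-166238994 (Mael) and chr13:112652311-112652560 (Ddx4).
Dazl: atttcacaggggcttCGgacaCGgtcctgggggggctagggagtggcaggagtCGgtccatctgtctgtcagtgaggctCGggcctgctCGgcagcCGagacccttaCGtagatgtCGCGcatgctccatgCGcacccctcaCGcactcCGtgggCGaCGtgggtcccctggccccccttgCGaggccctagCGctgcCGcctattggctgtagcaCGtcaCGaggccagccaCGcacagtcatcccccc
Sycp1: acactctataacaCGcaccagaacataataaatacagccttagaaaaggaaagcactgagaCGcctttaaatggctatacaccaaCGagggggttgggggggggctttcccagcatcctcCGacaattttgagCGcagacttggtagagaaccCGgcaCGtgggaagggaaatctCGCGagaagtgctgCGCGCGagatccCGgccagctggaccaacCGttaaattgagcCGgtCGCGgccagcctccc
Mael: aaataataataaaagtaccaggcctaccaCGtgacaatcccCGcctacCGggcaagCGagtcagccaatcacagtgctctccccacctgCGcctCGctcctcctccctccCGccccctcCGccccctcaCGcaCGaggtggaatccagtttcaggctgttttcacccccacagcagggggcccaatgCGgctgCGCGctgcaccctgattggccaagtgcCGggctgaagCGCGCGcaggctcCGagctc
Ddx4: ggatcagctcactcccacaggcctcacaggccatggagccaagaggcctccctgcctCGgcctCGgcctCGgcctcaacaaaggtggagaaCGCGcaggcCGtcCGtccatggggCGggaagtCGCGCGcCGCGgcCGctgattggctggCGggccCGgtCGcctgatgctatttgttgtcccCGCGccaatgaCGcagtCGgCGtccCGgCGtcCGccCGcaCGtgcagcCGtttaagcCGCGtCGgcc
These coordinates belong to another build than the peaks and were not carried over, so whether a peak covers the bases shown was not tested.

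The windows of these genes held more CpG than the median window, and all but those of Asz1 and Sycp3 were above the upper quartile. In the 300 bases from 250 before to 50 after the start, Ddx4 held 38 CpG, Stk31 29 and 28, Dazl 28, Mael 24, Sycp1 21, Asz1 17 and Sycp3 15. The median of the 32851 windows in the table was 7, with quartiles of 3 and 20. The E-box CACGTG, which reads the same on both strands and holds a CpG, was found in the windows of 5 of the 7 genes (Sycp1, Sycp3, Mael, Stk31 and Ddx4) and in 7.15% of all windows. GGCGGGAA, searched on both strands, was found in that of Ddx4 and in 2.19% of all windows. The motifs can overlap by 1 base, and a match describes the letters only.

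A peak pair, 1 peak of each list overlapping the other, lay within 10 kb of the 5′ end of each of the 7 genes, and in all 7 pairs the smaller AA-labelled library held more tags. The 5′ end is the end of the span on the side given by the gene's RefSeq strand, and a peak was counted near it when it came within 5 kb. That held for the pairs of 6 loci, while the Stk31 pair began 4917 bp (AA-labelled) and 5025 bp (no-AA-labelled) inside its span. The Stk31 gene is 74.0 kb long in RefSeq and its span 80 kb, so the span can begin up to 5.999 kb ahead of the gene. The Stk31 pair is therefore described with the other 6 and marked as outside the 5 kb. Nearer to the edge of that span lay an AA-labelled peak of 16 tags (chr6:49339689-49340472) and a no-AA-labelled peak of 27 tags (chr6:49340628-49341454), which did not overlap and so form no pair, and the no-AA-labelled one held more tags. Among 10-kb tiles of the autosomes, 11.1% held both peaks of a pair, 23.2% a peak of the AA-labelled list and 24.3% a peak of the other. These tiles are not gene starts, whose own share was not analysed here. A stretch of 10 kb on each side of a 5′ end is also wider than 1 tile, so the shares are not those of a like window.

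**Figure D1:**
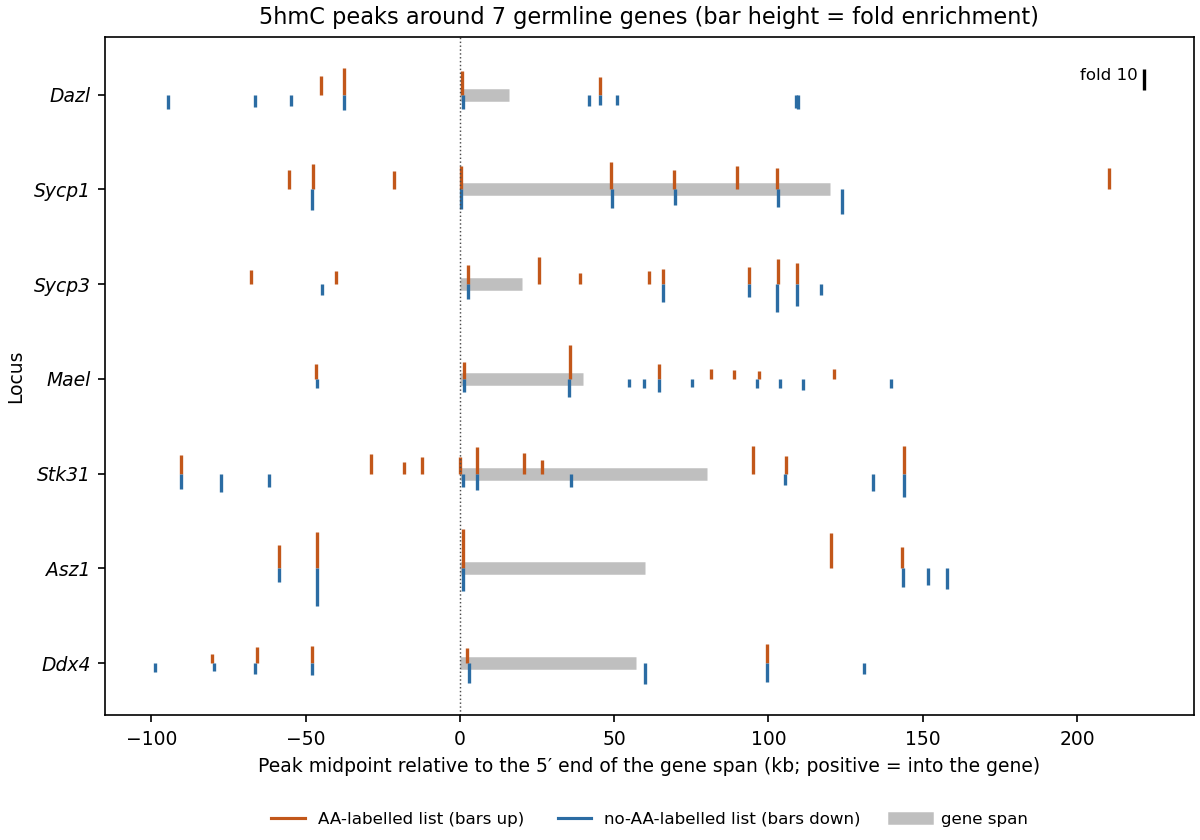
Peaks around the 7 genes, each drawn at the distance of its midpoint from the 5′ end of the gene's span in kb (positive values run into the gene), with bar height in proportion to the authors' fold enrichment, AA-labelled peaks upward and no-AA-labelled peaks downward. Grey bars are the gene spans, and every gene has an upward and a downward bar at or just inside its 5′ end.

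The genes of the synaptonemal complex, the protein zipper between paired chromosomes in meiosis, had strong pairs. Sycp1, which encodes its transverse filament, had 97 AA-labelled tags (78.7 to 118) in 1799 bp and 62 no-AA-labelled tags (47.5 to 79.5) in 1364 bp, at chr3:102738832-102740630 and chr3:102739074-102740437. Per kb and per 1000000 kept tags this is a density of 4.53 against 2.47, a log2 ratio of 0.87 (0.40 to 1.36). Sycp3, which encodes a protein of its lateral elements, had 89 tags (71.5 to 110) in 1826 bp against 52 (38.8 to 68.2) in 1394 bp, at chr10:87921864-87923689 and chr10:87921806-87923199. Its densities were 4.09 and 2.03, a log2 ratio of 1.01 (0.50 to 1.54). At both genes the AA-labelled library was the higher one, and the intervals of the 2 densities did not overlap.

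The genes of germ cell RNA-binding proteins lay at opposite ends of the range. Dazl, an RNA-binding protein that germ cells need to develop, had the pair with the most tags. Its AA-labelled peak held 133 tags (111 to 158) in 2386 bp at chr17:50432249-50434634, and its no-AA-labelled peak 58 (44.04 to 74.98) in 1424 bp at chr17:50432284-50433707. The densities were 4.68 and 2.21, a log2 ratio of 1.08 (0.63 to 1.55). Ddx4, the mouse vasa RNA helicase, had 44 tags (32.0 to 59.1) in 1595 bp at chr13:113441855-113443449 against 24 (15.4 to 35.7) in 677 bp at chr13:113441674-113442350. Its AA-labelled peak was the longer one, and its densities were 2.32 and 1.93, with a log2 ratio of 0.27 (-0.48 to 1.05). A difference in density at Ddx4 was not detectable at this depth.

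Mael and Asz1, genes of the piRNA pathway by which germ cells silence transposons, had the highest ratio and one of the lower ones. Mael had 66 tags (51.0 to 84.0) in 1308 bp at chr1:168168106-168169413 against 34 (23.5 to 47.5) in 1025 bp at chr1:168168019-168169043. Its densities of 4.24 and 1.80 gave the highest log2 ratio of all pairs at the loci, 1.23 (0.61 to 1.87). Asz1 had 41 tags (29.4 to 55.6) in 1155 bp at chr6:18058528-18059682 against 33 (22.7 to 46.3) in 901 bp at chr6:18058525-18059425. Its densities were 2.98 and 1.99, and the interval of its log2 ratio of 0.58 (-0.11 to 1.29) included 0. Stk31, a kinase-like protein of the testis with a Tudor domain, had 63 tags (48.4 to 80.6) in 1496 bp at chr6:49344917-49346412 against 34 (23.5 to 47.5) in 1065 bp at chr6:49345025-49346089. Its densities of 3.54 and 1.74 gave a log2 ratio of 1.03 (0.40 to 1.67). Together the 7 pairs held 533 AA-labelled tags (489 to 580) and 297 no-AA-labelled tags (264 to 333).

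**Figure D2:**
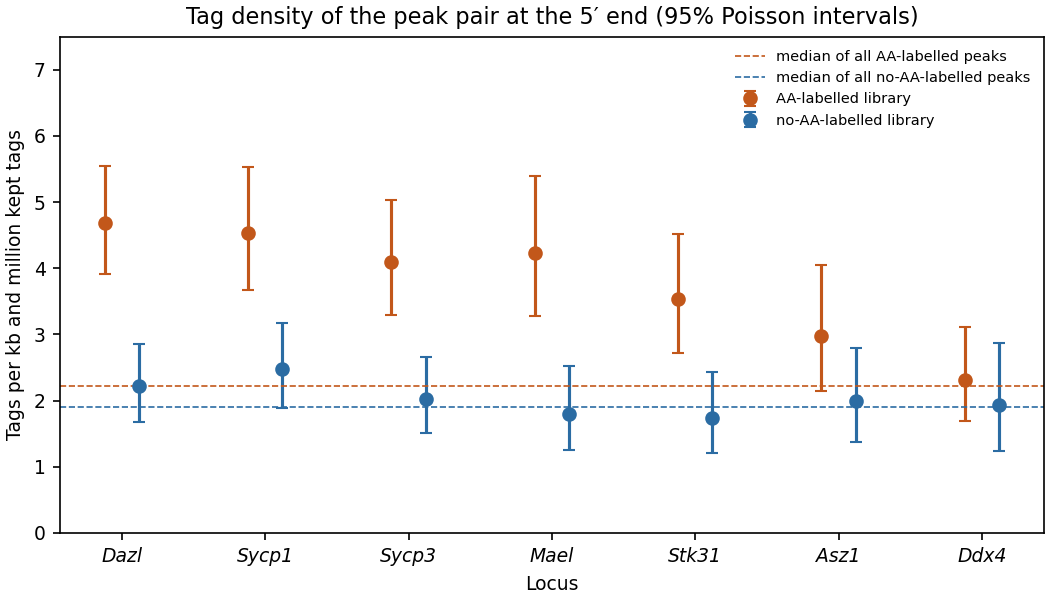
Tag density, in tags per kb and 1000000 kept tags, of the AA-labelled and the no-AA-labelled peak at the 5′ end of each gene, with 95% Poisson intervals of the tag count. Dashed lines are the medians of all peaks of each list (2.22 and 1.90), and the AA-labelled point is the higher of the 2 at each gene, with overlapping intervals at Asz1 and Ddx4.

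In order of density the AA-labelled peaks ran from Dazl, Sycp1, Mael, Sycp3 and Stk31 to Asz1 and Ddx4, and each neighbour in that order lay within the interval of the one before it. The no-AA-labelled peaks spanned a smaller range, from 2.47 at Sycp1 to 1.74 at Stk31, around the median of 1.90 for all peaks of that list. The AA-labelled peaks spanned 4.68 to 2.32 and all lay above that list's median of 2.22. By density, the Dazl peak was above 99.5% of the AA-labelled list, Sycp1 above 99.3%, Mael above 98.9% and Sycp3 above 98.5%, while the Ddx4 peak was above 56.8%. The no-AA-labelled peaks of the same genes were above 78.8% (Dazl), 90.9% (Sycp1), 39.2% (Mael), 63.7% (Sycp3) and 53.4% (Ddx4) of their list. The lists differ in length and depth, so these shares place a peak within its own list and show no change between the libraries.

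Set beside all 26954 pairs that overlapped one to one, the pairs at the 5′ ends had high ratios. Of the 6 pairs within 5 kb, 3 (Dazl, Sycp3 and Mael) were over 2-fold higher in AA-labelled density, and with Stk31 it was 4 of 7. Of all pairs, 1.47% were. The median log2 ratio of the 6 was 0.94 and that of the 7 was 1.01, against 0.22 for all pairs. All 7 had the higher density in the AA-labelled library, as did 75.2% of all pairs. The Mael ratio was above that of 99.7% of all pairs, Dazl 99.2%, Stk31 98.9%, Sycp3 98.7%, Sycp1 96.7%, Asz1 85.2% and Ddx4 55.7%. The 2-fold counts rest on scaling to kept tags, of which 16.9% (AA-labelled) and 11.7% (no-AA-labelled) lay inside peaks. Scaled to tags inside peaks, the median log2 ratio of the 6 was 0.42. The highest log2 ratio of the 7 without scaling was 0.61, under 2-fold. Scaling moves all pairs alike, so a pair's place among them stays the same. Without scaling, the AA-labelled peak held more tags in 7 of 7 pairs, where 40.7% of all pairs did, and more tags per kb in 5 of 7 (all but Asz1 and Ddx4), where 12.1% did.

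Pairs with a strong AA-labelled peak had higher ratios in general. Among pairs whose AA-labelled peak had at least the lowest p-value score seen at these 5′ ends, 5.47% of 6766 were over 2-fold higher, with a median log2 ratio of 0.51. Where both peaks had p-values of 1e-10 or less the share was 1.92%, with a median of 0.36. Among pairs chosen by the score of the no-AA-labelled peak in the same way it was 1.17%. The lowest AA-labelled score of the 7 pairs was 121, at Ddx4, and their median was 241. A set cut at the lowest score is therefore not matched to the 7 in strength. Peak length moved with the result too: the AA-labelled peaks of the 7 pairs were longer by a median of 432 bp, against 183 bp for all pairs. Over the whole lists the AA-labelled peaks were also longer, with a median of 1032 bp against 778 bp. The fragment size modelled in peak calling (d in the headers) was 229 for the AA-labelled list and 165 for the other. The parts of length and of d in the result were not tested.

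The other measures of the same pairs gave the same direction at most of the genes. In tags per peak, scaled to kept tags and not divided by length, 6 of the 7 pairs were over 2-fold higher in the AA-labelled library (all but Asz1), where 20.5% of all pairs were. The median log2 ratio was 1.45 for the 6 pairs within 5 kb and 0.52 for all. The authors' fold enrichment separated the genes less: its log2 ratio had a median of 0.40 in the 7 pairs and 0.21 in all pairs, and in 6 of 7 it was above the median of all pairs. For Ddx4 it was -0.36, with a fold enrichment of 7.28 in the AA-labelled list and 9.32 in the other. The fold is taken over the background around the peak within each library, and how that background differed between the libraries was not tested.

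**Figure D3:**
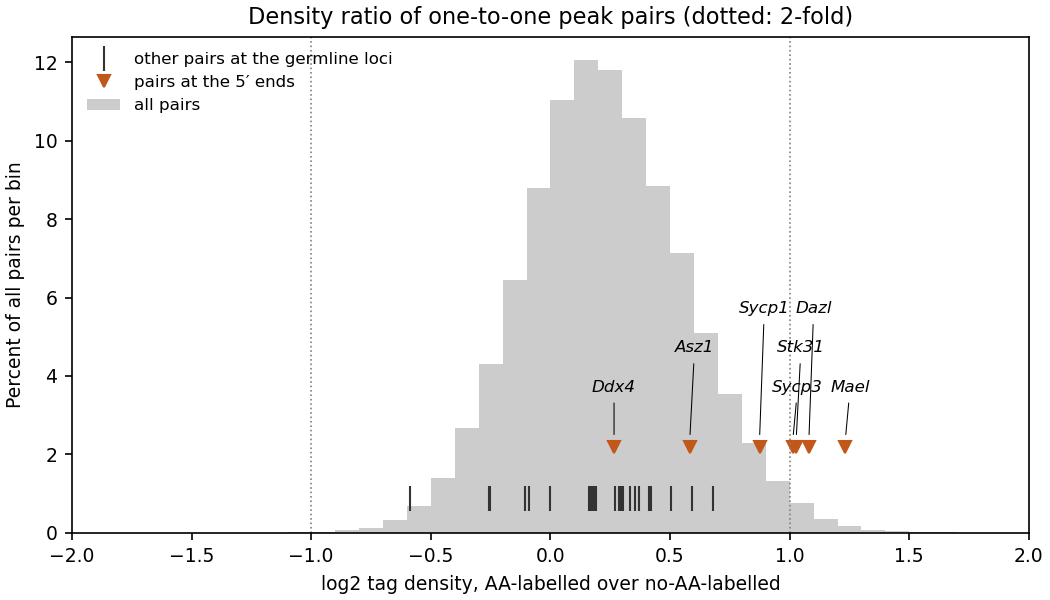
Distribution of the log2 ratio of tag density, AA-labelled over no-AA-labelled, in all one-to-one pairs (grey, percent of pairs per bin of 0.1), with the pairs at the 5′ ends of the 7 genes as triangles and the other 24 pairs at these loci as ticks. Mael, Dazl, Stk31 and Sycp3 lie beyond the 2-fold line, and the ticks spread around the middle of the distribution.

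The other pairs at the same loci had lower ratios. The 24 pairs more than 10 kb from a 5′ end had a median log2 ratio of 0.28 (0.16 to 0.36 over pairs), close to the 0.22 of all pairs. In density, none of the 24 was over 2-fold higher or lower, where 1.47% and 0.0223% of all pairs were. By the 5 kb rule the Stk31 pair belongs with them, and 1 of 25 was then over 2-fold higher, with a median of 0.29. The grouping by 10 kb was chosen after seeing the data. In 9 of the 24 the AA-labelled peak held more tags, and in 1 more tags per kb without scaling. In tags per peak, scaled and not divided by length, 5 of the 24 were over 2-fold higher, where 20.5% of all pairs were. The lowest density ratio among the loci's pairs with at least 30 tags in 1 library lay near Sycp3, at chr10:88028773-88029846 where 22 and 37 tags gave -0.59 (-1.42 to 0.21) on the log2 scale. Next came a pair near Mael (chr1:168104995-168105977, 29 against 39 tags) at -0.26 and a pair near Ddx4 (chr13:113345173-113345886, 14 against 39 tags) at -0.25 (-1.25 to 0.66). The intervals of all 3 include 0. Because the pairs of 1 library are not replicates, the difference between the 5′ ends and the other pairs was not tested.

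The 5′ peaks were also the most significant peaks of their loci in the AA-labelled list. The authors' score, the −log10 of the p-value multiplied by 10, was highest at the 5′ end in 7 of 7 loci in the AA-labelled list. In the no-AA-labelled list this held for 2 of 7, Dazl and Sycp1. The AA-labelled scores were 376 at Dazl, 354 at Sycp1, 273 at Stk31, 241 at Sycp3, 216 at Asz1, 213 at Mael and 121 at Ddx4. Those of the no-AA-labelled peaks were 141, 202, 99.4, 112, 143, 80.2 and 80.1 in the same order of genes. The Dazl and Sycp1 peaks scored above 99.9% and 99.8% of the AA-labelled list, and above 93.4% and 98.2% of the other, again as places within each list. The 7 pairs took 25.6% of all tags in the loci's AA-labelled peaks and 13.4% of those in the no-AA-labelled peaks.

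By fold enrichment, other peaks of the loci led. Asz1 was the 1 gene whose highest AA-labelled fold was at the 5′ end, at 18.34 against 10.67 in the other list. Its highest no-AA-labelled fold, 17.79 with 33 tags, lay 46.4 kb upstream at chr6:18106094-18106652, where the AA-labelled peak had 16.83 and 21 tags. At Mael the highest folds of both lists were at 1 pair inside the gene, chr1:168134215-168134729, with 15.84 and 18 tags against 8.66 and 13 tags. At Dazl it was a pair upstream, chr17:50470946-50471816, with 12.74 and 22 tags against 7.25 and 19 tags. At Stk31 it was a pair past the gene's 3′ end, chr6:49483300-49484310, with 13.04 and 34 tags against 10.90 and 31 tags. They held 13 to 41 tags, and none of these pairs had a log2 density ratio whose interval excluded 0.

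At the remaining loci the highest folds of the lists were at different places. At Sycp1 the AA-labelled list had 13.01 within the gene at chr3:102690557-102691237 (22 tags), and the no-AA-labelled list 11.56 at chr3:102615840-102616533 (21 tags), where the AA-labelled list had no peak. At Sycp3 the AA-labelled list had 12.58 at chr10:87945418-87946124 (21 tags, no peak in the other list). The no-AA-labelled list had 12.99 there at chr10:88022280-88023494 (51 tags), where the AA-labelled peak had 11.85 and 44 tags. At Ddx4 the AA-labelled list had 8.91 at chr13:113345173-113345886 (14 tags). Its no-AA-labelled maximum was 9.99 at chr13:113384531-113385522 (37 tags), without an AA-labelled counterpart. At an unshared peak the lists give no tags for the other library, and no ratio was formed.

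Inside the genes, peaks away from the 5′ end were found in 3 of the 7. The span of Sycp1, at 120 kb the longest, held 3 more pairs. They had 35 against 46 tags at chr3:102636429-102637727, 26 against 17 at chr3:102669926-102670986 and 22 against 21 at chr3:102690557-102691237. An AA-labelled peak of 18 tags at chr3:102649654-102650470 had no counterpart. Mael held the pair of 18 against 13 tags named for its fold. Stk31 held 2 unshared AA-labelled peaks of 15 tags (chr6:49360348-49361094) and 17 tags (chr6:49366218-49367072) and 1 unshared no-AA-labelled peak of 13 tags (chr6:49375846-49376325). Dazl, Sycp3, Asz1 and Ddx4 held no peak in their spans other than the 5′ pair.

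In the spans together, 0.393 Mb, there were 15 peaks of the AA-labelled list and 13 of the other. This is 38.2 (21.4 to 63.0) and 33.1 (17.6 to 56.6) peaks per Mb, against 26.4 (18.6 to 36.4) and 31.4 (22.8 to 42.2) in the flanks. More than 5 kb from the 5′ ends the spans held 7 and 6 peaks (among the 6 the no-AA-labelled peak of the Stk31 pair), or 19.6 (7.86 to 40.3) and 16.8 (6.15 to 36.5) per Mb. These intervals include the rates of the autosomes, 22.8 and 25.1 per Mb. The intervals of spans and flanks overlap, so a difference in peak number between gene and neighbourhood was not detectable with these counts. Of peaks with a p-value of 1e-10 or less, the AA-labelled list had 10 in the spans and 11 in the flanks, 3.24 times as many per Mb (1.23 to 8.40), and the other list 5 and 7, or 2.54 times (0.637 to 9.31). More than 5 kb from the 5′ ends the spans held 3 and 1 of these strong peaks. Outside the spans, 15 AA-labelled and 13 no-AA-labelled peaks lay 25 to 50 kb away, and 15 and 26 lay 50 to 100 kb away.

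In their neighbourhoods the 7 loci resembled the rest of the autosomes in peak number. They held 29.0 AA-labelled peaks per Mb (21.7 to 38.0) and 31.8 no-AA-labelled peaks per Mb (24.1 to 41.2), where the autosomes held 22.8 and 25.1. Peak numbers of the AA-labelled over the other list had a ratio of 0.912 (0.614 to 1.35), against 0.906 for all peaks. Among peaks with a p-value of 1e-10 or less it was 1.75 (0.822 to 3.90; 21 against 12 peaks), against 1.12 for all such peaks. Among peaks of at least 10-fold enrichment it was 3 (1.14 to 9.23; 18 against 6), against 1.88 for all such peaks. The direction at the loci and in the whole lists thus turned with the threshold, and each interval for the loci includes the value of all peaks. Single loci differed in direction: Sycp1 had 9 and 6 peaks, Sycp3 10 and 7, and Stk31 11 and 9, while Dazl had 4 and 10, Mael 8 and 11, Asz1 5 and 6, and Ddx4 5 and 8. At none of the 7 were the intervals of the 2 lists apart.

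**Figure D4:**
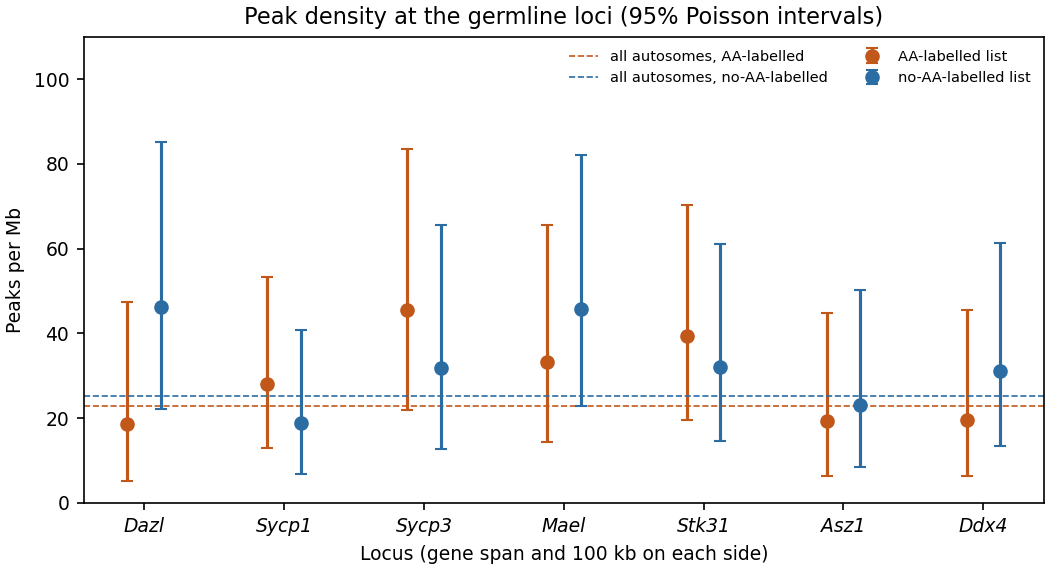
Peaks per Mb in each gene's span with 100 kb on each side, for the AA-labelled and the no-AA-labelled list, with 95% Poisson intervals. Dashed lines give the autosomes (22.8 and 25.1 per Mb), and the intervals of the 2 lists overlap at each of the 7 loci.

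The peaks of the loci were shared between the lists about as often as other peaks or somewhat more. Of the AA-labelled peaks 31 of 52 were shared, or 59.6% (45.1% to 73.0%), where 47.5% of all were. Of the no-AA-labelled peaks 31 of 57 were shared, or 54.4% (40.7% to 67.6%), where 43.6% of all were. Both intervals include the value of the whole list. All 5 AA-labelled peaks at Ddx4 were shared, and so were 4 of 5 at Asz1, 3 of 4 at Dazl, 5 of 9 at Sycp1, 5 of 10 at Sycp3, 5 of 8 at Mael and 4 of 11 at Stk31. The no-AA-labelled peaks at Dazl were mostly unshared, with 3 of 10 shared.

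By median, the loci's peaks lay above the AA-labelled list in fold enrichment, score and tags, and above the other list in score and tags but not in fold enrichment. The median fold enrichment was 8.91 (8.07 to 9.98 over peaks) against 7.86 for all AA-labelled peaks, and 6.41 (5.75 to 7.58) against 7.05 for all no-AA-labelled peaks. The median score was 89.2 (69.7 to 101) against 71.5, and 76.2 (68.3 to 90.7) against 68.1. Median tags were 28 (22 to 35) against 27, and 34 (29 to 38) against 28. The score interval of the AA-labelled loci includes the median of its list, and that of the no-AA-labelled loci lies just above it. The same holds for the intervals of tags. P-values of 1e-10 or less belonged to 21 of 52 AA-labelled peaks, against 22.9% of the list, and to 12 of 57 no-AA-labelled peaks, against 18.4%. Folds of 10 or more belonged to 18 of 52 and 6 of 57, against 21.7% and 10.4% of the lists. Of the 21 strong AA-labelled peaks, 7 were those at the 5′ ends, and away from the 5′ ends it was 14 of 44. Those 44 had a median fold of 8.91 (7.80 to 9.86) and a median score of 83.2 (67.8 to 96.5). Each of these intervals includes the median of the AA-labelled list.

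The unshared peaks of highest fold enrichment lay outside the 5′ ends. In the AA-labelled list they were led by a peak near Asz1 (chr6:17939317-17940470, 28 tags, 16.80-fold), followed by peaks near Stk31 (chr6:49434426-49435349, 22 tags, 12.87-fold) and Sycp3 (21 tags, named above). The other 2 were that of 18 tags within Sycp1 at 10.89-fold and one near Sycp1 (chr3:102529164-102530224, 28 tags, 10.02-fold). In the no-AA-labelled list those near Sycp1 and Ddx4 came before 2 near Asz1 (chr6:17901854-17902428, 17 tags, 9.66-fold, and chr6:17907906-17908420, 16 tags, 8.00-fold) and 1 near Stk31 (chr6:49262263-49263092, 37 tags, 8.72-fold). For counts of this size the Poisson intervals are wide, such as 18.6 to 40.5 for the 28 tags near Asz1.

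Downstream of Mael, toward Gpa33 in the RefSeq gene order, lay a stretch of long peaks with many tags and low folds. The AA-labelled list had peaks of 199 tags in 4165 bp at 4.40-fold (chr1:168079234-168083398), 127 tags in 3581 bp at 3.59-fold (chr1:168071293-168074873) and 92 tags in 2577 bp at 4.52-fold (chr1:168087315-168089891). The no-AA-labelled list had 161 tags in 3438 bp at 4.08-fold (chr1:168028656-168032093) and 117 tags in 2143 bp at 4.01-fold (chr1:168093562-168095704). Of these, the peak of 127 tags was shared, with a no-AA-labelled peak of 53 tags in 1373 bp, and this pair had the most tags at the locus. In scaled tags per peak the pair's log2 ratio was 1.89 (1.42 to 2.38), the highest of all pairs at the loci. In density it was 0.51 (0.03 to 1.00). At Ddx4 likewise the pair with the most tags lay away from the gene, at chr13:113524396-113526293 with 51 against 69 tags and folds of 4.37 and 3.75. At the other 5 loci the pair with the most tags was the one at the 5′ end.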

How the data were processed

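5hmC-enriched DNA was measured in 2 libraries of mouse ES cells, 1 per group. The submitters' processing notes name BWA 0.5.9-r16, MACS 1.4.2 and build mm9. Each list was called on 1 library with no control, at a p cutoff of 1e-05 and with 1 tag kept per position, per the file headers. The deposited tag counts are not scaled, and the deposited −log10 p-values (times 10) and fold enrichment are each library's own. A region missing from a list was not called, which does not show that it lacks 5hmC.

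Peaks of the 2 lists that overlapped by 1 bp or more were shared. For one-to-one pairs, tags were divided by length in kb and scaled to 1000000 kept tags. Intervals are exact: Poisson, Clopper-Pearson, for ratios the binomial given both counts' sum, and order statistics for medians (over peaks or pairs only). Tags carry no molecular identifier, so some may be copies of 1 molecule. SciPy 1.17.1, NumPy 2.4.6 and pandas 2.3.3 were run under Python 3.11.15. On simulated lists of 57827 peaks with 60.1% counterparts, sharing was recovered at 60.1%, and the median log2 ratio was 0.51 where 0.50 was set. Simulated counterparts had equal lengths and all other peaks were kept apart. The simulation therefore checks the calculation only, and not ratios between lists of unlike peak length.

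The loci and lists were chosen with earlier results of these data known. Named peaks followed a rule: at each locus the highest fold in each list, the pair with the most tags, and every peak in the span or within 5 kb of the 5′ end; over all loci, the 3 highest and 3 lowest density ratios with at least 30 tags in 1 library and the 5 unshared peaks of highest fold in each list. The long peaks near Mael were chosen after their values were seen. Spans are those of the locus definition, given to the nearest kb or 10 kb. No mm9 annotation was used here, so other germline genes were not counted. Alternatives changed the threshold, distance, overlap, tag measure, scaling, list assignment and loci entered.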

Additional observations from a re-analysis of the deposited data

How the results depend on the processing

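With p-values of 1e-10 or less and a fold enrichment of at least 10, the log2 ratio of peak numbers at the loci, -0.13, became 0.81 and 1.58 in that order, and the ratio of all peaks turned too, from 0.906 to 1.12 and 1.88. Sharing, 59.6% of AA-labelled and 54.4% of the other peaks, became 42.9% and 75% when both lists were held to 1e-10, and for the AA-labelled list 22.2% with a fold of at least 10 in both. The median log2 density ratio of the 31 pairs at the loci, 0.30, became 0.69 for tags per peak, 0.067 for tags per peak without scaling, -0.33 without scaling, -0.23 with scaling to tags inside peaks and -0.30 with the lists exchanged as the headers name them. For the 6 pairs within 5 kb of a 5′ end it was 0.94, became 1.45 for tags per peak, and stayed above 0 without scaling (0.32) and with scaling to tags inside peaks (0.42). With the lists exchanged it was -0.94, and its difference from all pairs, 0.73, was -0.73. That difference was 0.19 by fold enrichment, 0.59 against pairs of 1e-10 or less in both and 0.43 against pairs with a strong AA-labelled peak. The median folds of 8.91 and 6.41 became 11.3 and 9.87 at 1e-10. The log2 ratio of span to flank peaks per Mb, 0.53 and 0.07, became 1.70 and 1.35 with that cutoff and -0.47 and -0.94 without the peaks near the 5′ ends. Leaving out each locus in turn left the peak ratio between -0.25 and 0.03, the density ratio of all pairs at the loci between 0.29 and 0.34 and that of the 5′ pairs between 0.87 and 1.01. Within 2 kb of the 5′ end, 7 loci had an AA-labelled and 6 a no-AA-labelled peak. The alternatives for the 5′ pairs and their difference from all pairs, tags per peak without scaling and the spans without 5′ peaks were chosen after seeing the data. Where a stricter cutoff or fewer peaks entered, fewer peaks were compared, and the cause of the other moves was not tested. No paired analysis was possible because there was 1 library per group, and none could be left out.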

Other observations

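Between 44 and 48 kb upstream of the 5′ end, 6 of the 7 genes (all but Stk31) had a peak of either list, where 14.4% of 4-kb tiles of the autosomes held a peak midpoint of either list. At Sycp1, Mael, Asz1 and Ddx4 both lists had a peak there, at Dazl the AA-labelled list and at Sycp3 the no-AA-labelled list. The distance was chosen after the values were seen, so the share of fixed tiles is no background for it, and no test was made. The spans are longer than the genes by 1.77 kb (Dazl) to 6.35 kb (Sycp3), so distances from the gene starts can be off by as much.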
